A study of Mus musculus with 12 samples.

Results

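The genes for 8 enzymes of cholesterol synthesis were followed in fully grown mouse oocytes of 3 Marf1 genotypes. The 8 genes, chosen by symbol, were Hmgcs1, Mvk, Mvd, Fdps, Fdft1, Sqle, Lss and Cyp51, out of 24254 genes measured. All 8 had values above 0 in every library. Of these, 7 passed the filter for testing (a maximum of at least 1 FPKM, a fragment count scaled to transcript length and library size, in any library), among 12980 genes tested, and Cyp51 did not.

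Cells make cholesterol from acetyl-CoA. Hmgcs1 acts near the start of the mevalonate pathway, Mvk and Mvd carry mevalonate to isopentenyl diphosphate, Fdps builds farnesyl diphosphate, and Fdft1, Sqle, Lss and Cyp51 commit that product to sterols. Mouse oocytes are known to make little cholesterol and to receive it from the cumulus cells around them, in which the oocyte factors GDF9 and BMP15 raise expression of these enzymes. Marf1 encodes a ribonuclease domain protein that mouse oocytes need to resume meiosis.

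The groups were WT, GTMut (a Marf1 gene trap allele) and D272Mut (labelled as a D272 mutant of Marf1), with 4 libraries each and 80 oocytes per library. All mice were C57BL/6, 3 weeks of age, and had been primed with the gonadotropin PMSG (5 IU) 46 h before collection, which makes follicles grow. The design text speaks of oocytes at the germinal vesicle stage, whereas the treatment text speaks of lysed ovaries. Whether replicate libraries are of different mice is not labelled, so the p-values measure only the spread between these libraries, which may be technical. They name no batch, and they do not say whether the WT mice were littermates.

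Marf1 itself had a mean of 25.8 FPKM ± 0.63 (SD, n = 4) in WT, against 1.43 ± 0.13 in GTMut and 53.1 ± 1.02 in D272Mut, so the gene trap libraries had little Marf1 mRNA and the D272Mut libraries had more than WT. All 12 oocyte markers on the list had a mean of at least 1 FPKM in each genotype. Their summed level was 12385 to 12464 FPKM in WT, against 10147 to 10664 in GTMut and 9767 to 9975 in D272Mut, most of it from Gdf9 and Bmp15. Of 16 cumulus and granulosa markers, 6, 5 and 6 reached a mean of 1 FPKM in WT, GTMut and D272Mut. Their summed level was 45.3 to 50.3 FPKM in WT, against 148 to 162 in GTMut and 145 to 148 in D272Mut, most of it from Nr5a2, Kitl and Cyp19a1. Nr5a2 had means of 26.5, 134 and 118 FPKM in WT, GTMut and D272Mut, and Kitl 2.63, 11.7 and 11.6. Cyp19a1 went the other way, at 11.7, 4.90 and 6.53 FPKM. The other 13, grouped after their values were seen, summed to 5.15 to 7.52, 4.62 to 7.33 and 6.91 to 13.3 FPKM. The cumulus markers Slc38a3, Npr2 and Ptx3 were at or near 0, with Slc38a3 at a mean of 0.0176, 0.0145 and 0.0342 FPKM in WT, GTMut and D272Mut. Others were higher in a mutant: Gja1, the gap junction gene of cumulus cells, had 0.859, 0.507 and 3.30 FPKM. The inhibin subunit gene Inhba had 0.111, 1.79 and 0.999 FPKM. Fshr was lower in both mutants, at 1.26, 0.179 and 0.2996 FPKM, and Amh was lower in GTMut, at 0.517 FPKM against 1.0975 in WT. By the limma test described later, 9 of the 16 markers were tested. Of these, 3 were higher and 3 lower in GTMut, and 4 were higher and 2 lower in D272Mut. Of all tested genes, 38.3% were higher and 39.2% lower in GTMut, and 36.3% higher and 39.5% lower in D272Mut. Inhba passed the filter through the mutant libraries alone and Fshr through the WT libraries alone. Nothing about the markers as a group is read from these counts. The 11 markers of other ovarian cells summed to 21.5 to 24.1, 12.3 to 13.96 and 12.99 to 15.5 FPKM, and only Pecam1 reached a mean of 1. The part of other cell types in the results was not tested. Depth relative to the deepest library ran from 0.613 to 0.944 in WT, against 0.555 to 1 in GTMut and 0.444 to 0.837 in D272Mut.

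Promoters are shown for the 3 of the 8 genes that illustrate the range of response described later: Hmgcs1, with opposite differences in the mutants, Mvk, with the highest fold, and Cyp51, the gene under the filter. Each runs from 250 bases before to 50 bases after the gene's start on the gene's strand, from RefSeq's table for GRCm38.p6, which matched 5 of the 8 genes. Capitals mark 2 motifs, searched on both strands: TCACNCCAC, a form of the sterol regulatory element bound by SREBP factors, and CCAAT, the box bound by NF-Y, which reads as ATTGG where it lies on the opposite strand. Hmgcs1 lies at chr13:119690101-119690400 on the plus strand, Mvk at chr5:114444019-114444318 on the plus strand and Cyp51 at chr5:4104648-4104947 on the minus strand.
Hmgcs1: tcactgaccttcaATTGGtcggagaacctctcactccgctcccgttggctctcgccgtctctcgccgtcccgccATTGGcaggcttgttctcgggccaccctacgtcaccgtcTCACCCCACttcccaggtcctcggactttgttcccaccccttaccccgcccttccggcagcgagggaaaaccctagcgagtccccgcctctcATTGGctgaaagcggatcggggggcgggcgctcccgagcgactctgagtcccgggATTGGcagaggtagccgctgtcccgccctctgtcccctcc
Mvk: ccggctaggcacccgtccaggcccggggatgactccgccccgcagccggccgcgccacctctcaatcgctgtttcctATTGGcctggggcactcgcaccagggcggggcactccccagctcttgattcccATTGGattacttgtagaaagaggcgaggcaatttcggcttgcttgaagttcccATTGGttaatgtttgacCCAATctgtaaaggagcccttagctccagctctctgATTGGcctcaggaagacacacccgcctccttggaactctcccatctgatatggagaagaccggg
Cyp51: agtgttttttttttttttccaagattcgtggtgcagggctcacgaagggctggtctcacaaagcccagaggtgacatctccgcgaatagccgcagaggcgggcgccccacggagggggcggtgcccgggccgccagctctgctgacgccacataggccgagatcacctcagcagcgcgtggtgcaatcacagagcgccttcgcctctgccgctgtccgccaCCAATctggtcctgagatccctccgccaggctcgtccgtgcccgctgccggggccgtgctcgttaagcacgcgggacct
The Hmgcs1 window held 1 match to TCACNCCAC, and none of the other 4 windows (Mvk, Mvd, Lss, Cyp51) held one. Across 32851 RefSeq promoters of the same length, 408 (1.24%) held it. CCAAT matched 4 times in Hmgcs1, 5 times in Mvk, 2 times in Mvd and 1 time each in Lss and Cyp51. It is a common motif, present in 12289 (37.4%) of the promoters. No match of one motif overlapped a match of the other in the Hmgcs1 window. A match describes the letters only.

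The 8 genes spanned a wide range of levels in WT oocytes. Fdft1, squalene synthase, and Hmgcs1, cytosolic HMG-CoA synthase, had higher means than 96.6% and 94.4% of tested genes. Together they made up 92.5% to 93.6% of the summed FPKM of the 8 genes in the WT libraries. Sqle, Fdps and Mvd were mid-range, above 51.7%, 45.1% and 43.3% of tested genes. Lss was above 28.6%, and Cyp51 and Mvk were above 11.8% and 5.53%. FPKM is scaled to transcript length, so these levels can be set against each other.

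**Figure D1:**
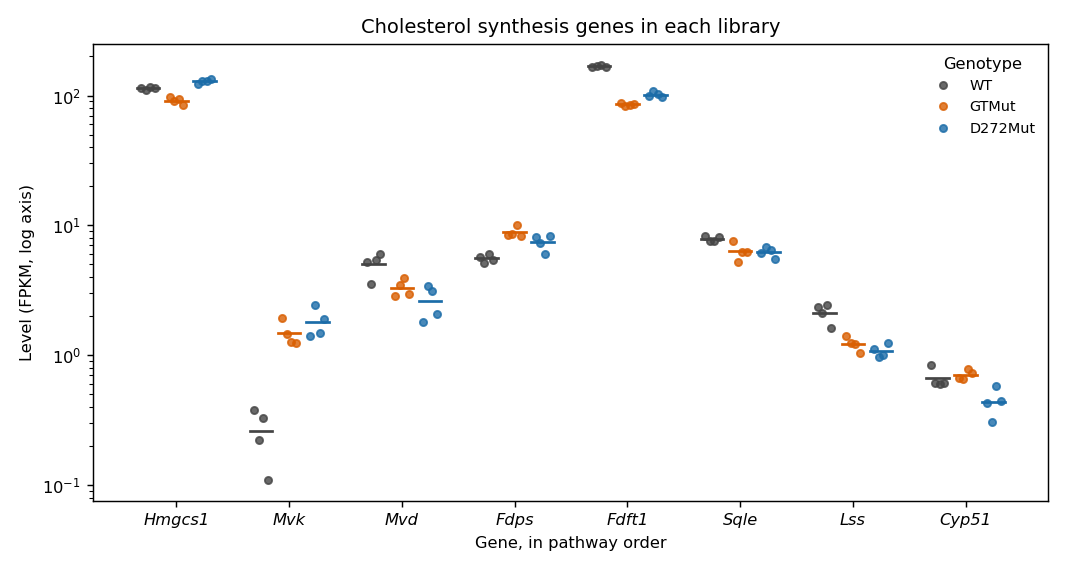
Level of each of the 8 genes (FPKM, log axis) in every library, with genes in pathway order, points for libraries and short lines for genotype means (n = 4). Fdft1 has means of 168, 85.4 and 102 FPKM in WT, GTMut and D272Mut, and Hmgcs1 has 114, 91.5 and 129. Mvk sits under 0.4 FPKM in the WT libraries and above 1.2 FPKM in the mutant libraries.

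In order of WT mean, the genes ran Fdft1, Hmgcs1, Sqle, Fdps, Mvd, Lss, Cyp51 and Mvk. Among neighbours in that order, only Fdps and Mvd had library ranges that overlapped. In GTMut the order was Hmgcs1, Fdft1, Fdps, Sqle, Mvd, Mvk, Lss and Cyp51, with overlap between Hmgcs1 and Fdft1 and between Mvk and Lss. In D272Mut it was Hmgcs1, Fdft1, Fdps, Sqle, Mvd, Mvk, Lss and Cyp51, with overlap between Fdps and Sqle and between Mvd and Mvk. Fdft1 thus led in WT and Hmgcs1 had the higher mean in both mutants, while Mvk moved from last place to above Lss. The sum of the 8 genes was 297 to 311 FPKM in WT, against 191 to 207 in GTMut and 239 to 258 in D272Mut. The share of Hmgcs1 and Fdft1 in that sum was 88.4% to 89.4% in GTMut and 91.7% to 92.5% in D272Mut.

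**Figure D2:**
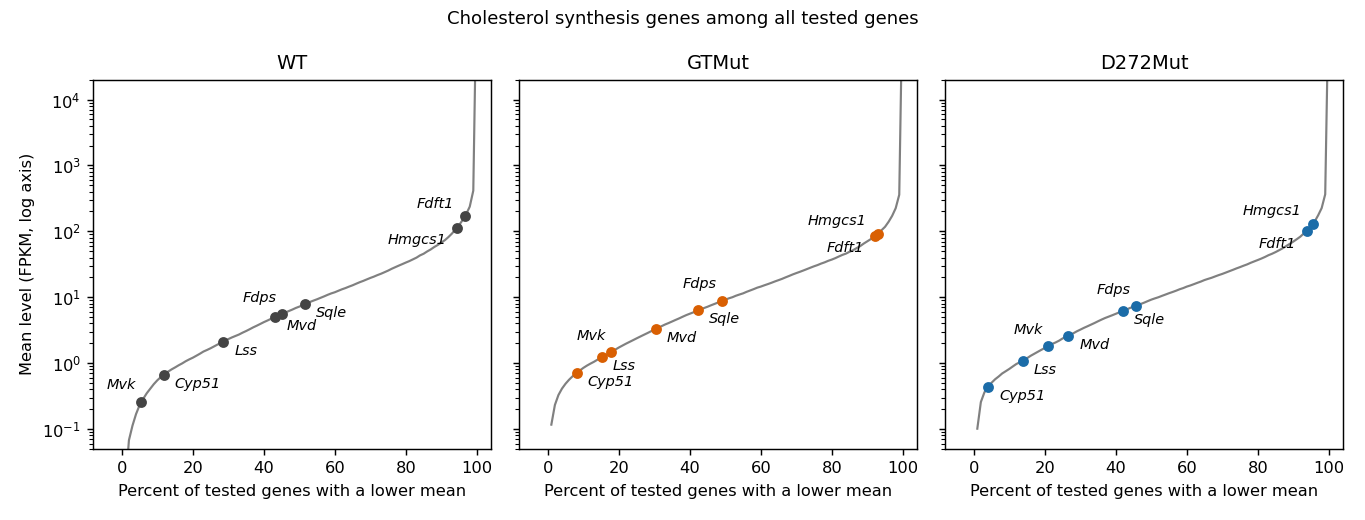
Mean level (FPKM, log axis) against the percent of tested genes with a lower mean, 1 panel per genotype (n = 4 libraries each), with the grey curve for all tested genes and points for the 8 genes. Mvk moves from 5.53% in WT to 17.9% in GTMut and 20.9% in D272Mut, and Hmgcs1 and Fdft1 stay at the upper end of the curve.

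Each mutant was compared with WT to ask how the genes differed in oocytes with altered Marf1. Of the 7 tested genes, Mvk and Fdps were higher in GTMut than in WT, and Hmgcs1, Mvd, Fdft1, Sqle and Lss were lower. In D272Mut, Hmgcs1, Mvk and Fdps were higher and Mvd, Fdft1, Sqle and Lss were lower. The call is a limma adjusted p under 0.05 after Benjamini-Hochberg adjustment over 12980 genes. By that rule 38.3% of all tested genes were higher and 39.2% lower in GTMut, 77.5% in all, and 36.3% were higher and 39.5% lower in D272Mut, 75.7% in all. A call on any 1 gene is therefore common in these data, and the counts of 2 higher and 5 lower, and of 3 higher and 4 lower, are not a result about cholesterol synthesis. Under quantile normalization, 39.8% of the calls in GTMut and 38.2% of those in D272Mut were in the higher direction, against 49.4% and 47.9% without it. The library ranges were separate from WT for 6 of the 7 genes in each comparison, against 72.9% of all tested genes for GTMut and 69.1% for D272Mut. The median log2 fold change of the 7 was -0.31 in GTMut and -0.29 in D272Mut, beside -0.03 and -0.05 over all tested genes. Mvk passed the filter through the mutant libraries alone, so these counts and medians carry no weight as evidence. The 2 comparisons share the WT libraries. In these pooled oocytes, fewer cells that hold an mRNA and less of it per cell cannot be told apart.

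**Figure D3:**
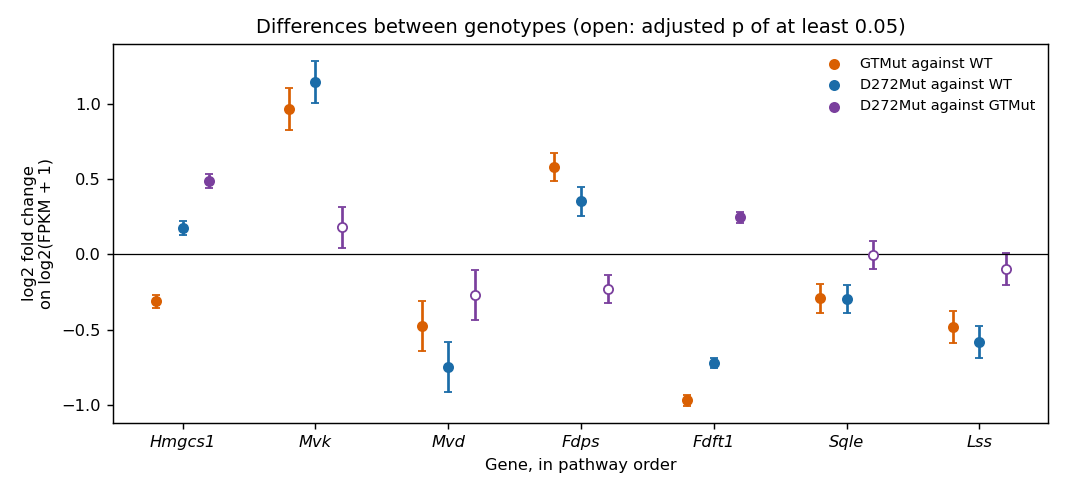
Log2 fold change on the log2(FPKM + 1) scale for the 7 tested genes in pathway order, with points for estimates, bars for standard errors and open points for an adjusted p of at least 0.05 (n = 4 libraries per genotype). Hmgcs1 lies below 0 in GTMut and above 0 in D272Mut against WT, and the other 6 genes lie on the same side of 0 in both. Mvk passed the filter through the mutant libraries alone, so its filled points against WT are a description only.

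Hmgcs1, which joins acetyl-CoA to acetoacetyl-CoA, separated all 3 genotypes. It shares 557 of its 4594 exon bases with the antisense gene Gm48342, which was not analysed here. Its level was 115, 110.5, 116 and 113 FPKM in the WT libraries. It was 97.0, 90.9, 94.0 and 84.1 FPKM in GTMut and 122, 128, 130.2 and 134 FPKM in D272Mut. The GTMut libraries were all below WT and the D272Mut libraries all above it, with no overlap. Hmgcs1 fell by 0.31 ± 0.04 (SE) on the log2 scale in GTMut (adjusted p = 1.98e-05), a mean 19.5% below WT. It rose by 0.18 ± 0.04 in D272Mut (adjusted p = 0.00256), a mean 1.13 times that of WT. The difference between the mutants was 0.49 ± 0.04 (adjusted p = 1.94e-06).

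Mvk, mevalonate kinase, was the lowest of the 8 genes in WT. Its level was 0.381, 0.221, 0.329 and 0.109 FPKM in the WT libraries, and 1.93, 1.44, 1.26 and 1.24 FPKM in the GTMut libraries. In D272Mut it was 1.40, 2.43, 1.49 and 1.91 FPKM. Every mutant library was above every WT library. Mvk was tested only because the mutant libraries passed the filter, so its differences from WT are given as a description without a p-value. On log2(FPKM + 1) the difference from WT was 0.97 ± 0.14 in GTMut and 1.15 ± 0.14 in D272Mut. The ratio of means was 5.65 for GTMut and 6.96 for D272Mut over WT, since the pseudocount of 1 understates a change at such levels, and with a pseudocount of 0.1 the log2 fold changes were 2.17 and 2.44. The FPKM steps corresponded to 3, 2, 4 and 1 fragments in the WT libraries, 21, 16, 9 and 16 in GTMut and 8, 22, 16 and 18 in D272Mut. Per unit of depth, the summed fragments gave a ratio of 5.65 (95% exact binomial interval 2.87 to 12.4) for GTMut and 7.01 (3.57 to 15.3) for D272Mut over WT. These intervals cover counting error alone and, given how Mvk passed the filter, are no test of its difference from WT. Mvk (GRCm38, chr5:114444269-114460591, plus strand) starts 209 bases from Mmab, the adenosyltransferase gene of cobalamin metabolism on the other strand. Mmab, named for its position after its values were seen, had a mean of 15.3 ± 0.83 FPKM in WT, against 10.4 ± 1.08 in GTMut and 11.7 ± 0.65 in D272Mut, lower in each mutant by limma, where Mvk was higher.

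Mvd, mevalonate diphosphate decarboxylase, was lower in the mutants. Its WT libraries were at 5.22, 3.51, 5.39 and 6.02 FPKM. The GTMut libraries were at 2.83, 3.45, 3.92 and 2.98 FPKM, and the D272Mut libraries at 1.80, 3.41, 3.13 and 2.08 FPKM. WT replicate 2 lay within the GTMut range and just above the highest D272Mut library. Mvd fell by 0.75 ± 0.17 on the log2 scale in D272Mut (adjusted p = 0.00103), a mean 48.2% below WT. In GTMut it fell by 0.48 ± 0.17 (adjusted p = 0.0183), but without WT replicate 4 the adjusted p was 0.0597 and without GTMut replicate 1 it was 0.0527. Quantile normalization put the GTMut difference at -0.82. Mvd's values stood for 44, 34, 70 and 59 fragments in the WT libraries, and the summed fragments per unit of depth gave a ratio of 0.638 (95% exact binomial interval 0.512 to 0.793) for GTMut and 0.534 (0.417 to 0.681) for D272Mut over WT.

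Fdps, farnesyl diphosphate synthase, makes the precursor of both sterols and non-sterol isoprenoids and was higher in the mutants. Its level was 5.72, 5.13, 6.03 and 5.38 FPKM in the WT libraries and 8.38, 8.64, 10.0 and 8.31 FPKM in the GTMut libraries. In D272Mut it was 8.08, 7.32, 6.02 and 8.23 FPKM. All GTMut libraries were above WT, whereas D272Mut replicate 3 was at the top of the WT range. Fdps shares 1124 of its 4208 exon bases with Gm43738 on the same strand, a gene model not analysed here. Fdps rose by 0.58 ± 0.09 on the log2 scale in GTMut (adjusted p = 6.09e-05), with a value of 0.26 under quantile normalization. In D272Mut it rose by 0.35 ± 0.09 (adjusted p = 0.00375), and quantile normalization ended that call, with a value of 0.02 and an adjusted p of 0.823. Quantile normalization moved the median log2 fold change of all tested genes to -0.22 in GTMut and -0.24 in D272Mut.

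Fdft1 commits farnesyl diphosphate to sterols by making squalene and was lower in both mutants. Its WT libraries were at 165, 168, 173 and 167 FPKM. The GTMut libraries were at 87.0, 83.8, 84.5 and 86.3 FPKM and the D272Mut libraries at 98.5, 108, 102 and 97.9 FPKM. No 2 genotypes overlapped. Fdft1 fell by 0.97 ± 0.04 on the log2 scale in GTMut (adjusted p = 7.85e-12), a mean 49.2% below WT. It fell by 0.72 ± 0.04 in D272Mut (adjusted p = 2.38e-10), a mean 39.6% below WT. Fdft1 (chr14:63145150-63179578, minus strand) shares 774 of its 4227 exon bases with Ctsb, cathepsin B, on the other strand, and the labels do not say whether counting used strand. Ctsb, named for this overlap after its values were seen, had means of 15.1, 24.2 and 24.1 FPKM in WT, GTMut and D272Mut, the opposite direction to Fdft1.

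Sqle, squalene epoxidase, carries the first oxygen-dependent step. It was at 8.29, 7.54, 7.63 and 8.06 FPKM in the WT libraries and 7.51, 5.17, 6.21 and 6.28 FPKM in GTMut. In D272Mut it was at 6.17, 6.85, 6.50 and 5.49 FPKM. The mutant libraries were all below WT, GTMut replicate 1 by a narrow margin. Sqle fell by 0.29 ± 0.09 on the log2 scale in each mutant (adjusted p = 0.0115 in both), and quantile normalization gave -0.61 in GTMut and -0.60 in D272Mut.

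Lss, lanosterol synthase, closes the sterol rings. Its level was 2.35, 2.13, 2.41 and 1.61 FPKM in the WT libraries. It was 1.40, 1.25, 1.22 and 1.04 FPKM in GTMut and 1.11, 0.960, 1.00 and 1.24 FPKM in D272Mut. All mutant libraries were below all WT libraries. Lss fell by 0.49 ± 0.11 on the log2 scale in GTMut (adjusted p = 0.00093), a mean 42.4% below WT. In D272Mut it fell by 0.58 ± 0.11 (adjusted p = 0.00022), a mean 49.2% below WT. With a pseudocount of 0.1 the values were -0.74 and -0.91, and under quantile normalization -0.80 and -0.88. Lss shares 381 exon bases with the antisense gene 4930483K19Rik, which was listed at 0.

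Cyp51, lanosterol demethylase, stayed under 1 FPKM throughout. It was at 0.837, 0.615, 0.601 and 0.606 FPKM in the WT libraries and 0.669, 0.657, 0.779 and 0.730 FPKM in GTMut. In D272Mut it was at 0.427, 0.307, 0.581 and 0.443 FPKM. The D272Mut libraries lay below all others, and those of WT and GTMut overlapped. In the fit with no filter on low values, Cyp51 was lower in D272Mut than in WT, with a log2 value of -0.21 ± 0.07 (adjusted p = 0.0264), and lower than in GTMut, with -0.25 ± 0.07 (adjusted p = 0.0229). GTMut against WT gave 0.04 ± 0.07 (adjusted p = 0.683). The values stood for 72 fragments in WT, 85 in GTMut and 45 in D272Mut, and the ratio per unit of depth was 0.684 (95% exact binomial interval 0.461 to 1.01) for D272Mut over WT and 1.08 (0.776 to 1.49) for GTMut over WT. For D272Mut over GTMut it was 0.637 (0.433 to 0.924). The counting interval includes equality for D272Mut over WT and does not for D272Mut over GTMut. Cyp51 shares 166 exon bases with Akap9, an anchoring protein gene on the other strand. Akap9, named for this overlap after its values were seen, had means of 3.19, 1.82 and 1.92 FPKM in WT, GTMut and D272Mut, lower in both mutants.

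Between the mutants, Hmgcs1 and Fdft1 were higher in D272Mut than in GTMut and the other 5 tested genes did not pass, where 39.6% of all tested genes passed, 19.3% higher and 20.2% lower. Libraries did not overlap for 3 of the 7 genes, against 37.4% of all. Fdft1 was higher by 0.25 ± 0.04 on the log2 scale (adjusted p = 0.000101). Mvk gave 0.18 ± 0.14 (adjusted p = 0.33) and a fragment ratio of 1.24 (95% exact binomial interval 0.862 to 1.79). Mvd gave -0.27 ± 0.17 (adjusted p = 0.217), and Lss gave -0.10 ± 0.11 (adjusted p = 0.507). Sqle gave -0.0017 ± 0.09 (adjusted p = 0.992), with library ranges that overlapped widely. Fdps gave -0.23 ± 0.09 (adjusted p = 0.066) and passed without D272Mut replicate 4, at -0.28 (adjusted p = 0.0445). No gene of the 7 was lower by limma, 1 (Fdps) was lower at an unadjusted p under 0.05, and 0 were lower at a q-value under 0.05 in the authors' deposited table.

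The authors' deposited table, from cuffdiff, had a q-value under 0.05 for 7 of the 8 genes in each mutant against WT, 2 higher and 5 lower in GTMut and 3 higher and 4 lower in D272Mut. These 7 include Mvk, which had 10 fragments in WT and whose differences from WT are given here as a description only. In the authors' deposited table its log2 ratio was 2.54 in GTMut and 2.87 in D272Mut, without a pseudocount of 1. For Cyp51 the authors' deposited table gave 0.14 and -0.53. Its q-values there can stand for a gene that was not tested, so no call is read from them. For the mutants against each other, the authors' deposited table had a q-value under 0.05 for Hmgcs1 and Fdft1 alone among the 8.

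The other 14 enzymes between acetyl-CoA and cholesterol completed the pathway. In GTMut 5 were higher than in WT, 8 lower and 1 not passed, with a median log2 fold change of -0.37. In D272Mut 5 were higher, 7 lower and 2 not passed, with a median of -0.35. So 13 and 12 of the 14 passed, beside 77.5% and 75.7% of all tested genes, and these counts are no result about the pathway. Pmvk, phosphomevalonate kinase, which acts between Mvk and Mvd, rose from a mean of 0.913 ± 0.36 FPKM in WT to 24.6 ± 3.2 in GTMut and 19.1 ± 2.27 in D272Mut.

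**Figure D4:**
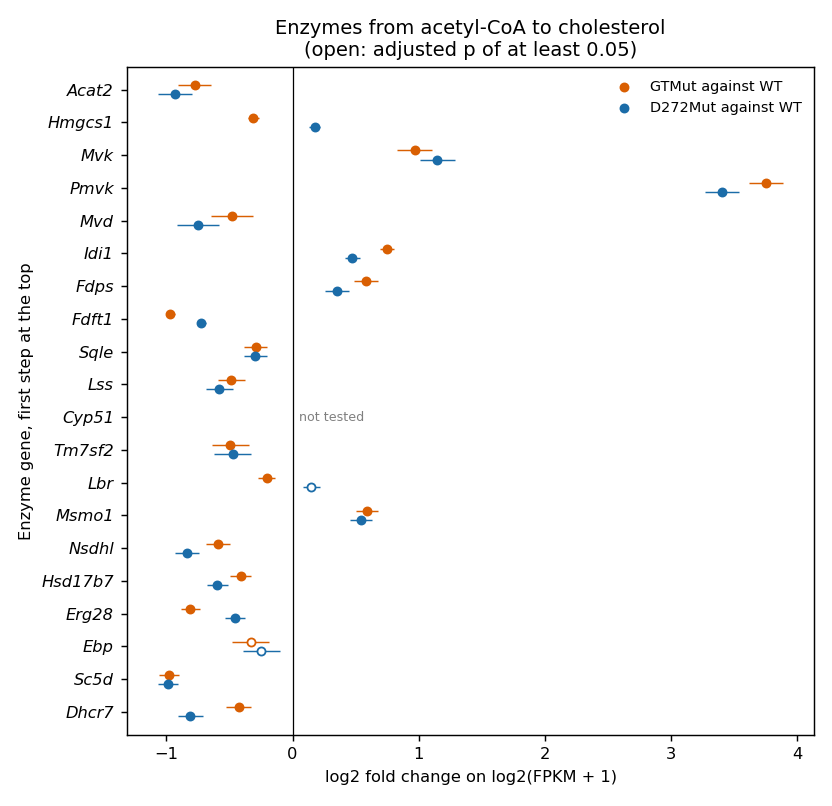
Log2 fold change on the log2(FPKM + 1) scale against WT for 20 of the 22 enzymes from acetyl-CoA to cholesterol, first step at the top, with bars for standard errors and open points for an adjusted p of at least 0.05 (n = 4 libraries per genotype). Pmvk lies farthest to the right at 3.75 in GTMut and 3.40 in D272Mut, and the steps Fdft1, Sqle and Lss lie to the left of 0 in both. Mvk passed the filter through the mutants alone and Tm7sf2 through WT alone, so their points are a description only.

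Counting all 22 enzymes, 21 were tested, of which 7 rose and 13 fell in GTMut and 8 rose and 11 fell in D272Mut. The risers include Mvk, which passed the filter only through the mutants, and all tested genes gave 38.3% higher and 39.2% lower in GTMut and 36.3% and 39.5% in D272Mut. In WT, 14 of the 22 had a mean of at least 5 FPKM and 6 had a mean under 1 FPKM. From Mvk to Fdps, the segment that makes farnesyl diphosphate from mevalonate, Mvk, Pmvk, Idi1 and Fdps were higher in both mutants and Mvd was lower. Idi1, the isomerase, had means of 13.9, 24.1 and 19.8 FPKM in WT, GTMut and D272Mut. From Fdft1 to Lss, all 3 enzymes were lower in both mutants. Among later steps, Msmo1, the sterol C4 oxidase, rose from 17.02 FPKM in WT to 26.1 in GTMut and 25.3 in D272Mut. Sc5d, the C5 desaturase, fell from 21.9 FPKM to 10.61 and 10.55, and Dhcr7 from 6.93 to 4.90 and 3.54. Lbr, a nuclear envelope protein with sterol reductase activity, was lower in GTMut at 40.0 FPKM against 46.2 in WT. It did not pass in D272Mut at 51.4 FPKM (adjusted p = 0.0581), but did under median-ratio scaling (adjusted p = 0.0156). These groupings by pathway segment were made after the values were seen and are a description.

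SREBP factors, which Scap escorts out of the endoplasmic reticulum unless Insig proteins hold it back, drive these genes in sterol-poor cells, and 13 of 14 genes of that control were tested. In GTMut 5 rose and 8 fell, beside 77.5% of all tested genes called, and in D272Mut 5 rose, 7 fell and 1 did not pass, beside 75.7%. No result about the list is read from these counts. Srebf2, the factor tied most closely to cholesterol synthesis, fell from 2.86 ± 0.38 FPKM in WT to 1.52 ± 0.17 in GTMut and 1.41 ± 0.18 in D272Mut. Insig1, which holds Scap in the endoplasmic reticulum, fell from 143 ± 6.12 FPKM to 47.2 ± 1.92 and 59.3 ± 2.37, while its relative Insig2 rose from 2.52 ± 0.78 to 17.8 ± 1.72 and 12.96 ± 1.11. Scap fell from 97.8 FPKM to 61.2 and 66.6. Faf2, which helps remove Insig1 from the membrane, had 0.792 ± 0.09 FPKM in WT and passed the filter through the mutants alone, at 27.4 ± 1.91 and 18.2 ± 1.23 FPKM. Mbtps2, lower in GTMut, did not pass under median-ratio scaling, nor did March6 in D272Mut.

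**Figure D5:**
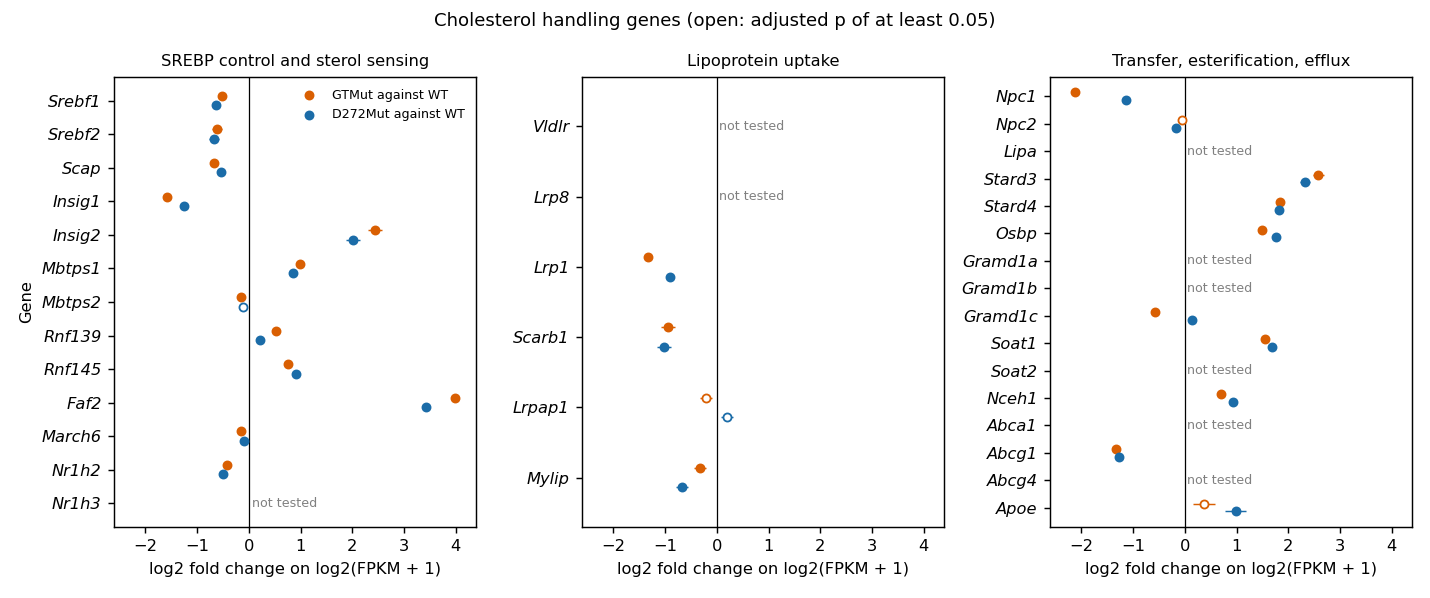
Log2 fold change on the log2(FPKM + 1) scale against WT for genes of SREBP control, lipoprotein uptake, and sterol transfer, esterification and efflux, with bars for standard errors and open points for an adjusted p of at least 0.05 (n = 4 libraries per genotype). Faf2 and Insig2 lie right of 2 in both mutants, and Vldlr and Lrp8 were not tested.

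The lipoprotein receptors Vldlr and Lrp8 were under the filter in every library, with Vldlr at means of 0.277, 0.228 and 0.282 FPKM in WT, GTMut and D272Mut. Of the 6 uptake genes tested, 1 rose, 3 fell and 2 did not pass in each mutant, and under quantile normalization 0 rose and 4 fell in each. That is beside 77.5% and 75.7% of all tested genes called. Scarb1, the receptor for high density lipoprotein, fell from 9.56 ± 1.44 FPKM in WT to 4.49 ± 0.69 in GTMut and 4.23 ± 0.94 in D272Mut. Lrp1 fell from 4.01 ± 0.19 FPKM to 0.991 ± 0.06 and 1.67 ± 0.17.

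Of 16 genes for transfer, esterification and efflux of cholesterol, 10 were tested, and 5 rose and 3 fell in GTMut and 7 rose and 3 fell in D272Mut. Of all tested genes, 38.3% rose and 39.2% fell in GTMut and 36.3% rose and 39.5% fell in D272Mut, and nothing particular to these 10 is read from the counts. Stard3 and Stard4, which carry sterols between membranes, rose from 1.59 and 11.3 FPKM in WT to 14.4 and 42.9 in GTMut and 11.95 and 42.4 in D272Mut. Osbp, a sterol exchanger, rose from 22.8 FPKM to 66.2 and 79.9, and Soat1, which esterifies cholesterol, from 9.69 to 30.2 and 33.5. Npc1, which exports cholesterol from lysosomes, fell from 54.3 FPKM to 11.7 and 24.3. Abcg1, an efflux transporter, fell from 7.37 FPKM to 2.33 and 2.46. Apoe was 27.2 FPKM in D272Mut replicate 2 and 61.1, 64.5 and 62.2 FPKM in the other D272Mut libraries, against 23.8 to 27.7 in WT, so that 1 D272Mut library was within the WT range.

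Fdps also feeds the non-sterol branch, and all 13 genes of that branch were tested. In GTMut 5 rose and 5 fell, with 5 and 2 under median-ratio scaling and 2 and 6 under quantile normalization. In D272Mut 2 rose and 6 fell, with 1 and 8 under quantile normalization. The share called among all tested genes was 77.5% in GTMut and 75.7% in D272Mut. Ggps1, which makes geranylgeranyl diphosphate from the product of Fdps, rose from 4.57 ± 0.54 FPKM in WT to 7.90 ± 0.78 in GTMut and 6.17 ± 0.37 in D272Mut, where quantile normalization ended the call (0.02, adjusted p = 0.835). Coq2, of ubiquinone synthesis, rose from 7.90 FPKM to 22.6 and 21.1, and Nus1, of dolichol synthesis, fell from 165 to 88.2 and 108. Of 8 steroid synthesis genes 5 were tested, and 2 rose and 1 fell in each mutant, with 1 riser in GTMut under quantile normalization. The shares of all tested genes called were 77.5% and 75.7% for this list too. Cyp17a1 and Hsd3b1, enzymes of ovarian somatic cells, had WT means of 0.0183 and 0.121 FPKM, whereas Cyp19a1, the aromatase of granulosa cells, had a WT mean of 11.7 FPKM and fell to 4.90 in GTMut and 6.53 in D272Mut.

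Of the 4 oocyte factors that act on cumulus cells, 3 were lower in each mutant, but 2 in GTMut and 1 in D272Mut under quantile normalization, where 39.2% and 39.5% of all tested genes were lower without it. Gdf9 had a mean of 5592 ± 48.6 FPKM in WT, against 4544 ± 162 in GTMut and 4319 ± 45.8 in D272Mut. Its log2 fold change was -0.30 ± 0.03 in GTMut (adjusted p = 4.58e-07), which quantile normalization turned to 0.15 (adjusted p = 0.845), and in D272Mut -0.37 ± 0.03 (adjusted p = 5.13e-08), turned to 0.16 (adjusted p = 0.84). Bmp15 had means of 2367, 2315 and 2006 FPKM and was lower than WT in D272Mut (-0.24, adjusted p = 0.000117), turned to 0.14 (adjusted p = 0.127) under quantile normalization. Its log2 fold change in GTMut went from -0.03 (adjusted p = 0.492) to 0.27 (adjusted p = 0.00882) under quantile normalization. Cumulus cells themselves were not profiled.

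Across the 12 libraries the 8 genes did not vary as 1 group. Pearson correlations of log2(FPKM + 1) for the 28 pairs ran from -0.899 (Fdps with Fdft1) to 0.836 (Fdft1 with Lss), with a median of 0.04, and 15 were above 0. The points share 3 genotypes and their depths, so these values are a description. By the same measure, the genes most like each were Spry1 and D5Ertd577e for Hmgcs1 (0.979 each), Uba6 (0.983) and Tekt2 (0.980) for Mvk, and Mark2 and Ubxn4 (0.998 each) for Fdft1. For Fdps they were Fer (0.980) and Pomgnt1 (0.977), for Mvd Ccnyl1 (0.958) and Ube2d2a (0.937), and for Lss Tmem183a (0.972) and Mira (0.965). Sqle and Cyp51 had lower best values, with Usp26 (0.917) and Epb4.1l4a (0.909) for Sqle and Glo1 (0.896) and Rbpms (0.893) for Cyp51. Above a correlation of 0.95 there were 1327 genes for Fdft1, 232 for Mvk, 15 for Hmgcs1 and 0 for Sqle and Cyp51.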

How the data were processed

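RNA-seq of 80 oocytes per library was compared among 3 genotypes with 4 libraries each, grouped by label. The authors aligned reads to mm10 with TopHat2 2.0.13 and derived normalized FPKM with Cufflinks 2.2.1, per the submitters' processing notes and the design text. For each pair of genotypes the authors' table also holds a log2 ratio, a p-value and a q-value by cuffdiff, printed here only as theirs. Per the file headers, the first column has no name, so columns were read by position. A further 1 line without content was not analysed here. The labels also name Smart-seq2 beside a fragmentation kit.

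Genes reaching 1 FPKM in any library were tested on the log2(FPKM + 1) scale, in 1 fit of all 12 libraries with limma 3.58.1 in R 4.3.3 (empirical Bayes with an intensity trend, two-sided). P-values were adjusted by Benjamini-Hochberg over 12980 genes with a threshold of 0.05. The fit was tested on simulated data. FPKM gives no totals, so relative depth came from the step of 1 fragment in genes under 0.3 FPKM, and fragments of Mvk, Mvd and Cyp51 were taken as whole within 0.05. Intervals are at 95% and cover counting error only.

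The 8 genes were named always, list genes where their whole list was counted, and for each of the 8 the 2 tested genes of highest correlation, unnamed models and small RNAs left out. The genes and lists were chosen with earlier results of these data known. Some list genes are counted with their lists but not reported here by name. Erg28 stands in the table under an older symbol. Gene positions are from GENCODE M21 on GRCm38. Alternatives were 2 scalings, 2 pseudocounts, 2 filters, no trend, a replicate block, 2 genotypes alone and each library left out. Plots were made in Python 3.11.15 (matplotlib 3.10.9).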

Additional observations from a re-analysis of the deposited data

Results flagged for a closer look

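Cyp51 had 1 WT library far from the others: replicate 1 was at 0.837 FPKM, and the other 3 WT libraries were at 0.601 to 0.615. The test for a stray library ran on 24 groups of 4 libraries, and chance marks about 1 in 20 groups. Hmgcs1 differed between the mutants in opposite directions from WT, with a log2 difference of 0.49 (D272Mut minus GTMut, limma adjusted p = 1.94e-06), lower than WT in 4 of 4 GTMut libraries and higher in 4 of 4 D272Mut libraries.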

How the results depend on the processing

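Of the log2 fold changes of the 7 tested genes under 21 alternatives, 422 kept direction and side of the threshold, 6 changed sign, 1 gained the call and 3 lost it. The sign changes were all Sqle in D272Mut against GTMut (-0.0017): 0.0057 under median-ratio scaling, 0.0041 under quantile normalization, and -0.0787 to 0.0756 with each library left out. The cause was not tested. With a mean of at least 5 FPKM required, 4 of the 8 genes were tested. The counts were 1 higher and 3 lower in GTMut, and 2 higher and 2 lower in D272Mut. Of the 8139 genes tested with that filter, 3298 were higher and 3590 lower in GTMut, and 3152 higher and 3675 lower in D272Mut. With the main filter 4973 were higher in GTMut, because more genes entered. Genes of the 8 lower in D272Mut than in GTMut were 0, but 1 (Cyp51) with no filter, and 0 to 1 with each library left out (1, Fdps, without D272Mut replicate 4). Of the 56 other cholesterol list genes tested, 14 were higher and 11 lower in D272Mut than in GTMut. That is beside 19.3% higher and 20.2% lower of all tested genes. With each library left out, 13 to 14 were higher and 7 to 13 lower (7 lower without GTMut replicate 2, GTMut replicate 4 or D272Mut replicate 4).

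The labels number the libraries 1 to 4 in each genotype. The deviations of each library from its genotype mean on log2(FPKM + 1) were correlated between same-numbered libraries of different genotypes. These correlations of deviations were -0.357 to 0.094, and none of 12 pairs was over 0.1. By the same measure, 2 of the 12 libraries correlated best with their own number. No pairing by number was seen, but this check could miss a small shared effect, and the labels state no pairing. The replicate block changed no call of the 7 genes: 2 were higher and 5 lower in GTMut, 3 and 4 in D272Mut, and 4943 of all genes were higher in GTMut. The low depth of Mvk (10 fragments in WT) and Cyp51 limits their precision.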
